A study of Mus musculus with 23 samples.

Results

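Transcripts of the p53 pathway were followed in the hippocampus of mice that carried a mutant tau transgene, 1 or 2 copies of Lsd1, or a virus that expressed LSD1. The set held 32 genes: Trp53, which encodes p53, and 31 genes named as its targets or as regulators of its protein. They were chosen by name, and all 32 were found among the 54232 gene identifiers of the count files. Cdkn1a, Fas, Eda2r and Ephx1 were among 17 members whose mean was higher in each of the 4 tau groups than in its group without tau. The share of all genes with that order was not computed, so the count of 17 cannot be read against it. Both tau groups at 11 months were set against the same group. The group with 1 Lsd1 copy and no tau had only replicates 1 and 2, which differed from replicates 3 and 4 in many genes. edgeR called none of the 32 genes in any of 9 comparisons after adjustment over all genes tested, where it called 0% to 0.0207% of all genes. DESeq2, fitted by group alone, called 1 member, Ephx1, in tau mice at 11 months (0.627% of all genes). With the replicate number as a block, in a fit chosen after seeing the data, DESeq2 also called Cdkn1a and Fas. That was in tau mice with 2 Lsd1 copies at 9 months (1.81% of all genes), where edgeR with the block called no member. Neither edgeR nor DESeq2 called a member for the loss of 1 Lsd1 copy or for the LSD1 virus. For the loss of 1 copy neither tool called Kdm1a, the gene of LSD1, although its level was lower. The lack of a call therefore does not show that a gene was unchanged. The ranges of Trp53 and Mdm2 with tau and without it overlapped in both cohorts.

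The 9-month cohort had 4 groups of C57BL/6 mice. Group PS19;Lsd1Δ/+ carried the PS19 tau transgene (P301S tau) and 1 functional copy of Lsd1 (4 libraries, called PS19 Lsd1 heterozygotes here), and PS19 carried the transgene with 2 Lsd1 copies (4 libraries). Lsd1Δ/+ had 1 Lsd1 copy without the transgene (2 libraries), and WT was wild type (4 libraries). The 11-month cohort was injected in the hippocampus with an adeno-associated virus that is expressed in neurons and had 3 libraries a group, all with 2 Lsd1 copies: PS19_rescue (PS19 mice with the LSD1 virus), PS19_HA (PS19 mice with the HA control virus) and WT_HA (wild-type mice given the control virus). The PS19 transgene is driven by the mouse prion promoter, which is active in many brain regions. The cells in which Lsd1 was deleted are not given by the labels. The labels do not tie each library to its own animal. A p-value here therefore sets a difference against the variation among these libraries, and that variation may be technical. These are bulk samples, in which fewer cells of a type and less RNA per cell cannot be told apart.

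Counted reads per library ran from 15451494 to 24644977. Kdm1a, the gene of LSD1, checked the labels: it stood at 37.3, 36.5, 55.2 and 43.6 CPM (counts scaled to a common library size) in PS19 Lsd1 heterozygotes, replicates 1 to 4, against 51.9 to 58.6 CPM in PS19. In Lsd1Δ/+ it was at 36.9 and 37.0 CPM, against 53.1 to 58.3 CPM in WT. The library labelled PS19;Lsd1Δ/+ replicate 3 therefore had Kdm1a at the level of mice with 2 copies, and the values of its group below take that label as given. Without that library, edgeR had 23 of 32 members above 0 in PS19 Lsd1 heterozygotes against Lsd1Δ/+ (25 with it). Against PS19 it had 13 of 32 above 0 (18 with it). Kdm1a was at 10900, 2950 and 1760 CPM in PS19_rescue, against 59.2 to 61.1 CPM in PS19_HA and 59.9 to 66.3 CPM in WT_HA. Prnp, whose promoter drives the transgene, was at 1110 to 1820 CPM in the 14 libraries labelled with tau, against 605 to 941 CPM in the 9 without it. Marker genes of neurons and of hippocampal neurons were detected in every library. The share of mitochondrial reads was 16.1% for PS19 replicate 3, 33.9% for WT replicate 3 and 16.2% for WT_HA replicate 2, while the other 20 libraries had 2.86% to 6.04%. Exons of 9 members overlap those of another gene, Cdkn1a, Bax and Ephx1 among them, and the strand setting of the counting is not given in the sources used here, so part of their reads could belong to the neighbour.

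p53 is a transcription factor that is held at low levels by MDM2, a ubiquitin ligase, and by its partner MDM4. DNA damage and other stress release it, and it then raises genes of cell-cycle arrest, cell death, DNA repair and metabolism, and Mdm2 itself, which closes a feedback loop. LSD1 is best known as a demethylase of histone H3, and in human cells it can also remove methyl groups from p53, which is why p53 targets can be read against the dose of Lsd1. The tau transgene and the dose of Lsd1 are described separately.

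Promoter sequences are shown for the 4 members described most closely below, Cdkn1a, Fas, Eda2r and Ephx1, and for Bax, a death effector with a small tau difference. The genes lie at chr17:29090976-29100727 (Cdkn1a), chr19:34290666-34327772 (Fas), chrX:97333840-97377216 (Eda2r), chr1:180976210-181020904 (Ephx1) and chr7:45461697-45466898 (Bax). Each window covers 250 bases before and 50 bases after the annotated start (RefSeq, GRCm38.p6), written 5′ to 3′ on the strand of the gene. The Ephx1 window lies inside the gene span given above, so its start is an internal one and not the 5′ end of that span, at 181020904. Capitals mark matches to the p53 decamer motif and, in Cdkn1a, its merge with the paired core described next.
Cdkn1a (chr17:29090729-29091028, plus strand): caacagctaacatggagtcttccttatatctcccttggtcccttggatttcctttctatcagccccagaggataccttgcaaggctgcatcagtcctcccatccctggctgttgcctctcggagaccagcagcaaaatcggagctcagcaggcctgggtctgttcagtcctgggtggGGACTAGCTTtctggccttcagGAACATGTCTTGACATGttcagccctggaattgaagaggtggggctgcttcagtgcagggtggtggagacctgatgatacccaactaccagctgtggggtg
Fas (chr19:34290409-34290708, plus strand): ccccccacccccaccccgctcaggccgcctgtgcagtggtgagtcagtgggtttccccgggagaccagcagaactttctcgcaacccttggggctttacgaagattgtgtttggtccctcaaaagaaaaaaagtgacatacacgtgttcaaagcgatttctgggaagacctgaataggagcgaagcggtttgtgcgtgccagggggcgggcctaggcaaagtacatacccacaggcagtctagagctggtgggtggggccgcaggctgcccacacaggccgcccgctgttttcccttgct
Eda2r (chrX:97377160-97377459, minus strand): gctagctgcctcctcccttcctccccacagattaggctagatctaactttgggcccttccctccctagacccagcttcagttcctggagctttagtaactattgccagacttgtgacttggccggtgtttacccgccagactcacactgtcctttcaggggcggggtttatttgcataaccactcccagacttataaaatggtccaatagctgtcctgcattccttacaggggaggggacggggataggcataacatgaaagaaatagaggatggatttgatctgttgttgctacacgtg
Ephx1 (chr1:181017520-181017819, minus strand): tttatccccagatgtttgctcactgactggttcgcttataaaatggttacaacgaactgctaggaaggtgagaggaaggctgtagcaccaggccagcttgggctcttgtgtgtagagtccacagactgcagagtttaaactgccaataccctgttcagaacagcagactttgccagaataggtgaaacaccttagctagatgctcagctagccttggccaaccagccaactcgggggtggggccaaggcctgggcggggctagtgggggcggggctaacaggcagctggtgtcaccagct
Bax (chr7:45466849-45467148, minus strand): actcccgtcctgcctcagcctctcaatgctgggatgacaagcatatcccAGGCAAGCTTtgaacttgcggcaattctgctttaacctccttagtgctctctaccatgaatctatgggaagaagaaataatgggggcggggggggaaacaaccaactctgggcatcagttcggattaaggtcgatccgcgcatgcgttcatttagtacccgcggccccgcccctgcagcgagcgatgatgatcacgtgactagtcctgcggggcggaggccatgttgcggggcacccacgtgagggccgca

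The p53 decamer reads the same on both strands and matched in 2745 of the 32851 promoter windows of the RefSeq table (8.36%). Windows were found for 24 of the 32 members, 33 windows in all, and 13 of these windows (39.4%) held a match. The stricter core CATGNNNNNNCATG, which also reads the same on both strands, was present in 234 windows (0.712%) and in 1 member, Cdkn1a. There it reads CATGTCTTGACATG, from 48 to 35 bases before the start, and it overlaps the second decamer match. Cdkn1a has a second annotated start, and the window at that start held neither motif. The printed windows of Fas, Eda2r and Ephx1 held no match, which says only that these letters are not in those windows. A match is a description of the sequence and not of binding.

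Levels of different members are compared here as mean CPM per kilobase of merged exons in WT, with no test. Plk2, a polo-like kinase of neurons, was highest at 37.3 CPM per kilobase, followed by Ccng1 (cyclin G1, a partner of MDM2) at 24.4 and Bax at 19.2. The place of Bax depends on the libraries averaged, as WT replicates 1 to 4 were at 55.3, 44.9, 4.07 and 17.1 CPM. In WT_HA Bax was at 9.73 CPM per kilobase, below Ei24 (16.9), Sesn1 (13) and Mdm2 (11.4). Mdm2 stood at 11.1, Trp53 at 4.90 and Cdkn1a at 1.80 CPM per kilobase. Fas was at 0.568, Gdf15 at 0.127 and Eda2r lowest at 0.0958 CPM per kilobase. Ephx1, at 12.6 CPM per kilobase, was near Mdm2.

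At 9 months, many genes differed between the libraries numbered 1 and 2 and those numbered 3 and 4. Bbc3 (PUMA), a trigger of the mitochondrial death pathway, averaged 3.82 CPM in replicates 3 and 4 of the 3 groups with all 4 numbers, against 17.2 CPM in replicates 1 and 2. Bax, the pore-forming effector of that pathway, averaged 14.3 CPM in replicates 3 and 4, against 51.5 CPM in replicates 1 and 2. Ccng1 had the opposite order, with 115 CPM in replicates 3 and 4, against 55.7 CPM in replicates 1 and 2. The 11-month libraries were near replicates 3 and 4, with means of 3.86 CPM for Bbc3, 16.2 CPM for Bax and 108 CPM for Ccng1. The ranges of both sets of replicates did not overlap for 6 of 32 members (18.8%), against 30.5% of the 20122 genes tested. Across the 32 members, the log2 difference between the sets had a Pearson r of -0.94 and a Spearman rho of -0.949 with the GC content of the longest transcript, and across 20100 genes these were -0.721 and -0.769. Genes share the libraries and are not independent replicates, so these are descriptions. Lsd1Δ/+ has only replicates 1 and 2, so comparisons with it are also described within replicates 1 and 2.

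**Figure D1:**
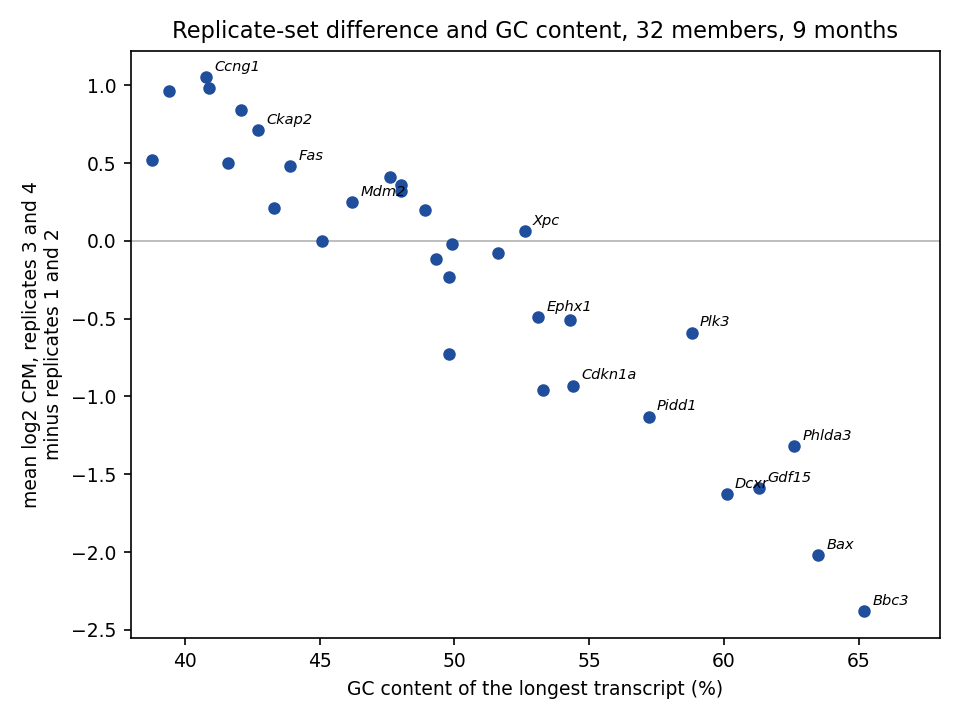
Mean log2 difference in CPM of replicates 3 and 4 minus replicates 1 and 2 at 9 months (y axis), against GC content of the longest transcript in percent (x axis), for the 32 members, 1 point a gene. GC-rich members such as Bbc3 (-2.38) and Bax (-2.02) lay below 0, and GC-poor members such as Ccng1 (1.05) lay above it.

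**Figure D2:**
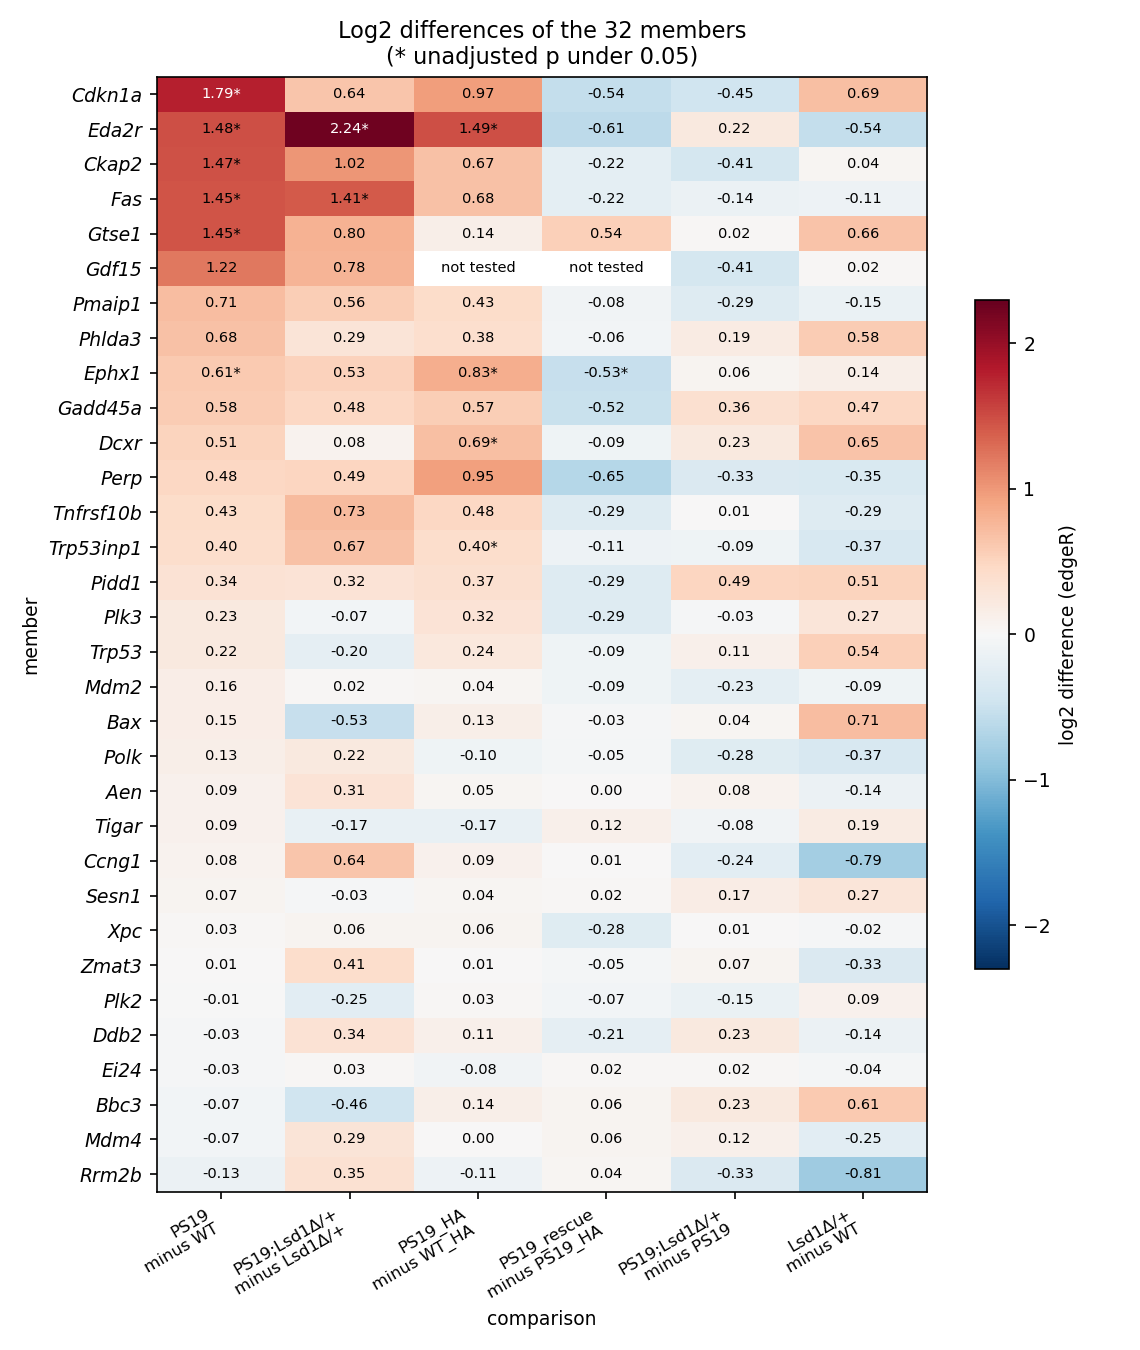
Log2 differences of the 32 members (rows) in 6 comparisons (columns), the group named before "minus" over the group after it, by edgeR, in color and as numbers. An asterisk marks an unadjusted p under 0.05, and Gdf15 was not tested at 11 months. Differences above 0 are most frequent in the columns that set tau against no tau, with 26 of 32 members for PS19 against WT.

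The first comparison asked what the tau transgene does with 2 Lsd1 copies at 9 months. Of the 32 members, 26 had a log2 difference above 0 in PS19 against WT (46.5% of all genes tested), with a median of 0.23, against a median of -0.02 over all 20122 genes. edgeR's quasi-likelihood test called 0 members at a Benjamini-Hochberg adjusted p under 0.05 (0.00497% of all genes, which is 1 gene), and DESeq2 also called 0 (0.949%, 191 genes). At an unadjusted p under 0.05, edgeR had 6 members, all higher in PS19 (18.8%, against 3.45% of all genes, or 3.91% in either direction): Cdkn1a, Fas, Eda2r, Ephx1, Ckap2 and Gtse1. No member had PS19 and WT ranges that did not overlap (1.02% of all genes higher and 0.557% lower).

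Cdkn1a, the inhibitor of cyclin-dependent kinases that carries out much of p53's cell-cycle arrest, was at 55.3, 12.5, 5.66 and 16.9 CPM in PS19, replicates 1 to 4, against 6.48, 11.9, 2.63 and 4.58 CPM in WT. Each PS19 library was above the WT library of the same number, replicate 2 by the least, and the ranges overlapped. The log2 difference was 1.79 (SE 0.57), with an adjusted p of 0.538 by edgeR and 0.120 by DESeq2. It was 1.90 within replicates 1 and 2 and 1.65 within replicates 3 and 4. Leaving out each of the 8 libraries in turn gave 0.89 to 2.29, the lowest without PS19 replicate 1, the highest library. With the replicate number as a block, in a fit chosen after seeing the data, DESeq2 called 2 members (1.81% of all genes were called), Cdkn1a (log2 1.69, adjusted p 0.0306) and Fas, while edgeR with the block called 0.

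Death receptors form a second group of targets. Fas, the receptor of Fas ligand, was at 4.40, 1.30, 2 and 5.15 CPM in PS19, against 0.769, 1.28, 0.996 and 1.64 CPM in WT. Its log2 difference was 1.45 (SE 0.44), with an adjusted p of 0.479 by edgeR and 0.136 by DESeq2, and with the replicate block DESeq2 gave a log2 difference of 1.38 and an adjusted p of 0.0467. Eda2r, an X-linked receptor of ectodysplasin A2, was at 1.80, 0.433, 1.26 and 2.81 CPM in PS19, against 0.192, 0.664, 0.543 and 0.859 CPM in WT. PS19 replicate 2 was inside the WT range for both Fas and Eda2r, and the other 3 PS19 libraries were above all 4 WT libraries. The log2 difference of Eda2r was 1.48 (SE 0.62, adjusted p 1 by edgeR). Tnfrsf10b, the TRAIL receptor, averaged 1.24 ± 0.260 CPM in PS19 and 0.919 ± 0.104 CPM in WT (SD, n = 4 each).

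Ephx1, a microsomal epoxide hydrolase, was at 60.1, 29.6, 29.2 and 31.9 CPM in PS19, against 25.8, 35.9, 14.8 and 21.8 CPM in WT, with a log2 difference of 0.61 (SE 0.26, adjusted p 1 by edgeR). The difference was 0.32 without PS19 replicate 1, the highest library. Gtse1, a microtubule-associated protein that restrains p53 in G2, averaged 1.09 ± 0.817 CPM in PS19 and 0.379 ± 0.198 CPM in WT (SD, n = 4 each). Ckap2, a spindle protein, averaged 1.16 ± 0.711 CPM in PS19 and 0.438 ± 0.323 CPM in WT (SD, n = 4 each). The log2 differences were 1.45 (SE 0.53) for Gtse1 and 1.47 (SE 0.61) for Ckap2, and edgeR gave both an adjusted p of at least 0.795. Levels near 1 CPM rest on few reads, so these 2 values are less precise than that of Ephx1. The same holds for Eda2r, at 4 to 21 reads a library in WT, and for Fas, at 11 to 40 reads a library in WT.

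**Figure D3:**
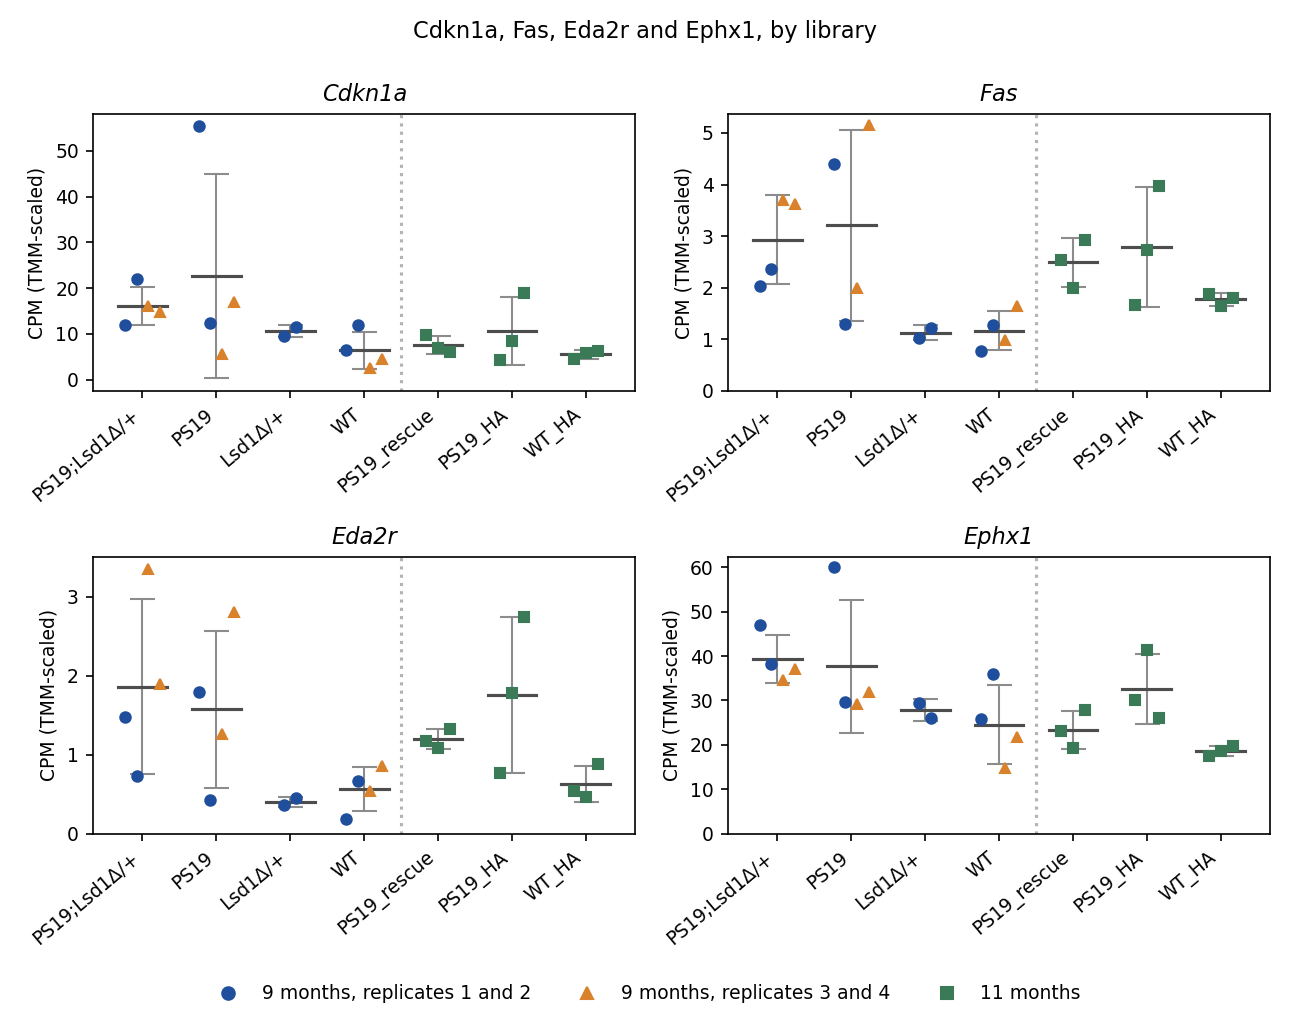
CPM (y axis, linear) of Cdkn1a, Fas, Eda2r and Ephx1 in each library, by group (x axis), with the group mean as a bar and the SD as whiskers. For Fas, PS19 replicate 2 lies inside the WT range, at 1.30 CPM. For Cdkn1a it lies just above that range, at 12.5 CPM, and PS19 replicate 3 lies inside it, at 5.66 CPM. PS19_HA replicate 1 lies close to WT_HA for Cdkn1a and Fas, at 4.39 CPM for Cdkn1a.

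Trp53 itself was at 36.4, 25.9, 11.1 and 19.2 CPM in PS19, against 25.2, 28.7, 6.52 and 18.8 CPM in WT, and its log2 difference was 0.22 (SE 0.38). Its 95% interval of -0.60 to 1.04 holds 0 and also holds changes of 1 log2 unit. Among the negative regulators, Mdm2 was at 56.8, 57.3, 77.1 and 63.6 CPM in PS19, against 44.6, 56.0, 66.5 and 58.9 CPM in WT, a log2 difference of 0.16 (SE 0.20). Mdm4 had a log2 difference of -0.07 (SE 0.19). Ccng1 was at 71.9, 51.5, 130 and 114 CPM in PS19, against 57.5, 52.6, 138 and 94.8 CPM in WT, a log2 difference of 0.08 (SE 0.43). Mdm2 was higher in PS19 than in the WT library of the same number in 4 of 4 numbers and Ccng1 in 2 of 4, and both groups' ranges overlapped for each.

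Bax and Bbc3 differed more between the replicate sets than between the genotypes. Bax was at 54.6, 53.4, 9.19 and 17.8 CPM in PS19, against 55.3, 44.9, 4.07 and 17.1 CPM in WT, and Bbc3 was at 17.4, 14.9, 1.33 and 5.57 CPM in PS19, against 21.1, 14.9, 1.18 and 3.84 CPM in WT. The log2 differences were 0.15 (SE 0.67) for Bax and -0.07 (SE 0.79) for Bbc3. Pmaip1 (NOXA), a trigger of the same pathway, was at 4.44, 1.52, 3.13 and 2.97 CPM in PS19, against 0.720, 1.24, 3.89 and 1.43 CPM in WT. Its log2 difference of 0.71 (SE 0.53) was 1.43 without WT replicate 3, the highest WT library, and 1.62 within replicates 1 and 2. Phlda3, a repressor of AKT, was at 31.5, 15.8, 5.26 and 13.8 CPM in PS19, against 16.7, 13.1, 2.08 and 9.24 CPM in WT, a log2 difference of 0.68 (SE 0.55). Plk2 was level, at 175, 159, 173 and 161 CPM in PS19, against 167, 169, 155 and 178 CPM in WT (log2 -0.01, SE 0.34).

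The repair genes had differences near 0. Xpc and Ddb2, which recognise damaged DNA, had log2 differences of 0.03 (SE 0.16) and -0.03 (SE 0.28) in PS19 against WT, and the translesion polymerase Polk had 0.13 (SE 0.31). Rrm2b, the p53-induced subunit of ribonucleotide reductase, had the lowest difference of the 32 at -0.13 (SE 0.42). Among the stress genes, Gadd45a, a growth arrest gene, had 0.58 (SE 0.40), and the cytokine Gdf15 had 1.22 (SE 0.86) from means of 0.589 CPM in PS19 and 0.236 CPM in WT. Sesn1, a repressor of mTORC1, had 0.07, the RNA-binding protein Zmat3 0.01, Trp53inp1, a cofactor of p53, 0.40, and Perp, a desmosome protein, 0.48. The other members, Aen (an exonuclease), Plk3 (a polo-like kinase), Ei24 (a protein of the endoplasmic reticulum), Dcxr (a carbonyl reductase), Tigar (a fructose bisphosphatase) and Pidd1 (a death-domain scaffold), lay between -0.03 and 0.51.

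Glial marker levels are given beside these values. The summed level of 8 activated-microglia markers was 192, 95.2, 158 and 318 CPM in PS19, against 80.4, 87.8, 115 and 99.9 CPM in WT, and 7 astrocyte markers summed to 8460, 4230, 6520 and 9920 CPM in PS19, against 4230, 4010, 5450 and 5840 CPM in WT. In both lists PS19 replicate 2 was the lowest PS19 library, and it was also within the WT range for Fas and Eda2r. DESeq2 called 5 of the 8 activated-microglia markers higher in PS19 and 2 of the 7 astrocyte markers, while edgeR called none of either. None of the markers of either list was at 0. Other lists also differed in level. Homeostatic-microglia markers summed to 305 to 717 CPM in PS19, against 270 to 301 CPM in WT, and oligodendrocyte markers to 5120 to 7140 CPM in PS19, against 3800 to 4720 CPM in WT, both without overlap. Of 7 neuron markers, 0 were above 0 (median -0.21), and of 6 choroid plexus markers 6 were (median 0.75), with sums of 1600, 1020, 2230 and 274 CPM in PS19, against 69.5, 2180, 589 and 175 CPM in WT. The part of these cells in the differences of the p53 targets was not tested.

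The same transgene was next examined with 1 Lsd1 copy. In PS19 Lsd1 heterozygotes against Lsd1Δ/+, 25 of 32 members had a log2 difference above 0 (55.1% of all genes), with a median of 0.33 (0.06 over all genes), and within replicates 1 and 2 the median was 0.16. edgeR called 0 members (0.00497% of all genes) and DESeq2 0 (0.219%), and 2 members, Eda2r and Fas, had an unadjusted p under 0.05 by edgeR, both higher (2.84% of all genes, or 3.33% in either direction). In 6 members all 4 PS19 Lsd1 heterozygotes were above both Lsd1Δ/+ libraries (18.8%, against 8.53% of all genes): Cdkn1a, Fas, Eda2r, Ephx1, Ckap2 and Trp53inp1. None was lower without overlap (8.58% of all genes).

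Eda2r was at 1.48, 0.726, 3.35 and 1.90 CPM in PS19 Lsd1 heterozygotes, against 0.359 and 0.449 CPM in Lsd1Δ/+. The log2 difference was 2.24 (SE 0.83, adjusted p 0.981 by edgeR) and 1.44 within replicates 1 and 2, where the library labelled PS19;Lsd1Δ/+ replicate 3, the highest, has no part. Fas was at 2.03, 2.37, 3.71 and 3.62 CPM in PS19 Lsd1 heterozygotes, against 1.03 and 1.23 CPM in Lsd1Δ/+, a log2 difference of 1.41 (SE 0.57) and 0.96 within replicates 1 and 2. Cdkn1a was at 11.9, 21.9, 16 and 14.8 CPM in PS19 Lsd1 heterozygotes, against 9.65 and 11.5 CPM in Lsd1Δ/+. The groups of Cdkn1a did not overlap, but the nearest libraries, at 11.9 and 11.5 CPM, were close, and the log2 difference was 0.64 (SE 0.70), and 0.68 within replicates 1 and 2. Ephx1 was at 47.1, 38.2, 34.6 and 37.2 CPM in PS19 Lsd1 heterozygotes, against 29.5 and 26.0 CPM in Lsd1Δ/+ (log2 0.53, SE 0.32, and 0.63 within replicates 1 and 2).

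Bax had the lowest difference here, -0.53 (SE 0.80), at 53, 47.7, 20.1 and 17.5 CPM in PS19 Lsd1 heterozygotes, against 52.5 and 48.0 CPM in Lsd1Δ/+. Within replicates 1 and 2 that difference was 0.01, so its sign rests on the replicate sets. Activated-microglia markers summed to 153, 123, 138 and 215 CPM in PS19 Lsd1 heterozygotes, against 73.1 and 88.3 CPM in Lsd1Δ/+, without overlap.

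Fitting tau and Lsd1 dose as 2 additive factors over the 14 libraries, edgeR called 0 members for the tau term, while 178 of all genes (0.885%) were called. In that fit the tau term of Fas was 1.43 (adjusted p 0.068 by edgeR), that of Eda2r 1.76 (adjusted p 0.167 by edgeR) and that of Cdkn1a 1.31 (adjusted p 0.374 by edgeR).

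The dose of Lsd1 was then examined at a fixed tau genotype. In PS19 Lsd1 heterozygotes against PS19, 18 of 32 members had a log2 difference above 0 (47.4% of all genes) and the median was 0.01, against -0.02 over all genes. edgeR called 0 members (0% of all genes), DESeq2 called 0 (0.00497%), and 0 had an unadjusted p under 0.05 by edgeR (1.25% of all genes). No member had ranges without overlap (0.388% of all genes higher and 0.268% lower). The 95% intervals of all 32 differences held 0.

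Cdkn1a had the lowest difference, -0.45 (SE 0.55), with the PS19 Lsd1 heterozygotes at 11.9 to 21.9 CPM, against 5.66 to 55.3 CPM in PS19. Its sign rested on PS19 replicate 1, at 55.3 CPM: without that library the difference was 0.44. It was -1.02 within replicates 1 and 2 and 0.42 within replicates 3 and 4. Pidd1 had the highest difference, 0.49 (SE 0.50), with means of 3.11 ± 1.03 CPM in PS19 Lsd1 heterozygotes and 2.22 ± 1.58 CPM in PS19 (SD, n = 4 each). Trp53 was at 33.9, 25.7, 19.2 and 21.2 CPM in PS19 Lsd1 heterozygotes, close to its values in PS19, with a log2 difference of 0.11 (SE 0.38). Mdm2, at 51.9, 52.6, 55.9 and 59.1 CPM in PS19 Lsd1 heterozygotes, was nearly even, and its difference from PS19 was -0.23 (SE 0.20), with a 95% interval of -0.65 to 0.20.

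For the other members given by library, Ccng1 was at 58.7, 41.8, 123 and 91.4 CPM and Bbc3 at 18.5, 16.4, 6.10 and 4.93 CPM in PS19 Lsd1 heterozygotes, again ordered by replicate set. Pmaip1 was at 1.48, 1.64, 3.41 and 3.26 CPM and Phlda3 at 20.5, 27.6, 16.9 and 10.2 CPM in these libraries. Plk2 was at 175, 45.0, 186 and 194 CPM, so replicate 2 was far below the other 3 libraries of its group. The same library had summed levels of 316 CPM for hippocampal-neuron markers, 4770 CPM for neuron markers and 280 CPM for thalamus markers. The other 3 libraries had 721 to 943, 7240 to 9520 and 122 to 134 CPM for these lists, and their part in the level of Plk2 was not tested.

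Without tau, the loss of 1 Lsd1 copy gave 16 of 32 members above 0 in Lsd1Δ/+ against WT (49% of all genes), with a median of 0, against -0.02 over all genes. edgeR called 0 members (0%), DESeq2 called 0 (0.00497%), and 0 members had an unadjusted p under 0.05 by edgeR (1.28%). Plk2 and Sesn1 were higher without overlap (5.37% of all genes), and Mdm4 and Trp53inp1 were lower without overlap (5.80%). The difference for Sesn1 was 0.27 (SE 0.21), for Plk2 0.09 (SE 0.41), for Mdm4 -0.25 (SE 0.23) and for Trp53inp1 -0.37 (SE 0.37). Within replicates 1 and 2 they were 0.25 for Sesn1, 0.13 for Plk2, -0.12 for Mdm4 and -0.10 for Trp53inp1.

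Trp53 was at 30.2 and 28.4 CPM in Lsd1Δ/+, a log2 difference of 0.54 (SE 0.46) from WT that was 0.12 within replicates 1 and 2. The extreme values, 0.71 for Bax (52.5 and 48.0 CPM in Lsd1Δ/+), -0.79 for Ccng1 (54.4 and 50.8 CPM) and -0.81 for Rrm2b, were 0, -0.07 and -0.04 within replicates 1 and 2. Mdm2 was at 50.9 and 60.2 CPM in Lsd1Δ/+ (log2 -0.09), Bbc3 at 19.7 and 12.2 CPM (0.61), Pmaip1 at 1.57 and 1.85 CPM (-0.15), Phlda3 at 20.6 and 10.8 CPM (0.58) and Plk2 at 179 and 189 CPM. Cdkn1a had a log2 difference of 0.69 (SE 0.67) in Lsd1Δ/+ against WT, which was 0.20 within replicates 1 and 2, and Eda2r had -0.54 (SE 0.81), which was -0.10. Within replicates 1 and 2 the differences from WT were 0.14 for Mdm2, -0.17 for Bbc3, 0.80 for Pmaip1 and 0.08 for Phlda3, so the sign of Mdm2, Bbc3 and Pmaip1 turned. The 95% intervals had a median width of 2.02 log2 units over the 32 members, and ran, for example, from -0.41 to 0.33 for Ei24 and from -1 to 2.43 for Bax.

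**Figure D4:**
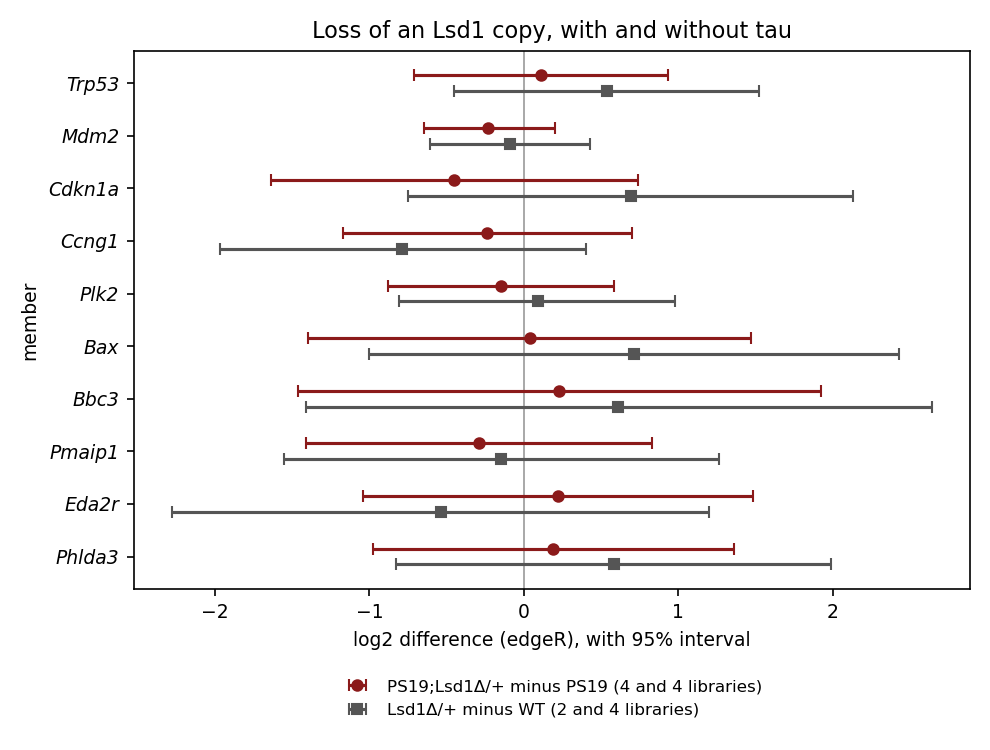
Log2 differences with 95% intervals (x axis) of 10 members (rows) for the comparisons that change the dose of Lsd1, by edgeR. All drawn intervals hold 0 in PS19 Lsd1 heterozygotes against PS19 and in Lsd1Δ/+ against WT.

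The interaction asked whether the tau difference depends on the number of Lsd1 copies. edgeR called 0 members (0% of all genes), DESeq2 called 0 (0.00994%), and 0 had an unadjusted p under 0.05 by edgeR (0.835%, or 0.731% higher). The value was above 0 for 13 of 32 members (52.4% of all genes), with a median of -0.09, against 0.03 over all genes, and for 11 of 32 within replicates 1 and 2, where the median was also -0.09. Values ran from -1.15 (SE 0.87) for Cdkn1a to 0.76 (SE 0.99) for Eda2r, and the median of the 95% interval widths was 2.64 log2 units. For Cdkn1a the tau difference was 0.64 with 1 copy and 1.79 with 2 copies, and the interaction was -0.25 without PS19 replicate 1 and -1.22 within replicates 1 and 2. Within replicates 1 and 2 the interaction of Eda2r was 0.05, and that of Pmaip1 was -1.74, against -0.15 over all 14 libraries. For Fas the tau differences were 1.41 with 1 copy and 1.45 with 2 copies.

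At 11 months, tau was examined with the control virus. In PS19_HA against WT_HA, 27 of the 31 members that passed the filter had a log2 difference above 0 (50.5% of all genes), and the median was 0.14 (0 over all genes). Gdf15 did not pass the filter at 11 months. edgeR called 0 members (0.0156% of all genes), and DESeq2 called 1, Ephx1 (0.627%). At an unadjusted p under 0.05, edgeR had 4 members, all higher: Ephx1, Trp53inp1, Dcxr and Eda2r (5.91% of all genes, with 2.72% lower and 8.63% in either direction). The ranges did not overlap for 3 higher members, Dcxr, Ephx1 and Trp53inp1 (6.32% of all genes), and for 1 lower member, Ei24 (7.76%).

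Ephx1 was at 30.1, 41.4 and 26.1 CPM in PS19_HA, against 17.6, 18.7 and 19.7 CPM in WT_HA, so every PS19_HA library was above every WT_HA library. The log2 difference was 0.83 (SE 0.19), with an adjusted p of 0.454 by edgeR and 0.0291 by DESeq2. It was 0.62 to 0.97 when each of the 6 libraries was left out in turn. Of 6 choroid plexus markers, 6 had a log2 difference above 0, with a median of 2.60. Their sum was 3090, 3430 and 369 CPM in PS19_HA, against 42.2, 131 and 921 CPM in WT_HA, and neither tool called any of them. None of the 6 was at 0 in a group, and Ephx1 was higher in the 2 PS19_HA libraries with the highest sums. The part of these markers in the level of Ephx1 was not tested. Dcxr averaged 4.17 ± 0.424 CPM in PS19_HA and 2.62 ± 0.309 CPM in WT_HA (SD, n = 3 each), a log2 difference of 0.69 (SE 0.19, adjusted p 0.454 by edgeR). Trp53inp1 averaged 25.9 ± 2.19 CPM in PS19_HA and 20.1 ± 0.959 CPM in WT_HA (SD, n = 3 each), a log2 difference of 0.40 (SE 0.11, adjusted p 0.454 by edgeR). Ei24 had -0.08 (SE 0.09).

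Eda2r was at 0.766, 1.78 and 2.74 CPM in PS19_HA, against 0.541, 0.468 and 0.885 CPM in WT_HA, a log2 difference of 1.49 (SE 0.45, adjusted p 0.454 by edgeR). Cdkn1a was at 4.39, 8.55 and 19.0 CPM in PS19_HA, against 4.49, 5.86 and 6.23 CPM in WT_HA. PS19_HA replicate 1 lay below every WT_HA library for Cdkn1a and replicate 3 lay above all others, and the log2 difference of 0.97 (SE 0.45) was 0.26 without replicate 3. Fas was at 1.66, 2.74 and 3.98 CPM in PS19_HA, against 1.87, 1.64 and 1.81 CPM in WT_HA (log2 0.68, SE 0.31). The activated-microglia sum was 108, 152 and 245 CPM in PS19_HA, against 63.8, 129 and 53.8 CPM in WT_HA, with replicate 1 lowest and replicate 3 highest among PS19_HA as for Eda2r and Cdkn1a. Its part in the values of these members was not tested. Sex-linked transcripts divided the 11-month libraries into 2 types: replicates 1 and 2 of PS19_HA and of WT_HA were of the female type and replicate 3 of the male type, while PS19_rescue had the male type in replicate 1. With that type as a covariate the log2 difference of X-linked Eda2r in PS19_HA against WT_HA was 1.47.

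Trp53 was at 16.2, 19.5 and 18.2 CPM in PS19_HA, against 17.0, 14.1 and 15.5 CPM in WT_HA (log2 0.24, SE 0.12). Mdm2 was at 57.1, 62.0 and 56.8 CPM in PS19_HA, against 53.9, 68 and 52.2 CPM in WT_HA (0.04, SE 0.13). Ccng1 was at 94.0, 102 and 126 CPM in PS19_HA, against 101, 114 and 94.1 CPM in WT_HA (0.09, SE 0.13). These 3 genes of the p53 loop overlapped between genotypes. Bax was at 15.5, 16 and 17.8 CPM in PS19_HA, against 18.2, 12.9 and 14.8 CPM in WT_HA (0.13, SE 0.14), and Bbc3 at 4.05, 3.24 and 4.25 CPM in PS19_HA, against 4.41, 2.40 and 3.85 CPM in WT_HA (0.14, SE 0.24). Pmaip1 was at 1.70, 2.90 and 5.88 CPM in PS19_HA, against 1.79, 3.51 and 2.69 CPM in WT_HA, and Phlda3 at 7.15, 10.4 and 17.1 CPM in PS19_HA, against 9.49, 3.04 and 14.5 CPM in WT_HA. Plk2 was at 180, 200 and 150 CPM in PS19_HA, against 193, 188 and 149 CPM in WT_HA, and the lowest difference of the members was that of Tigar, at -0.17 (SE 0.16).

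The LSD1 virus was compared with the control virus among tau mice. In PS19_rescue against PS19_HA, 9 of 31 members had a log2 difference above 0 (48.2% of all genes), with a median of -0.09 (-0.01 over all genes). edgeR called 0 members (0%), DESeq2 called 0 (0.0156%), and edgeR had 1 member at an unadjusted p under 0.05, Ephx1, lower (1.19% of all genes, or 1.81% in either direction). Kdm1a itself had a log2 difference of 6.38 (adjusted p 0.0895 by edgeR and 1.27e-18 by DESeq2). Xpc was lower without overlap (1.87% of all genes) and Mdm4 higher without overlap (8% of all genes).

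Ephx1 was at 23.1, 19.2 and 27.8 CPM in PS19_rescue, against 30.1, 41.4 and 26.1 CPM in PS19_HA, a log2 difference of -0.53 (SE 0.19, adjusted p 1 by edgeR). Perp had the lowest difference, -0.65 (SE 0.54), at 2.83, 3.45 and 9.61 CPM in PS19_rescue, against 9.62, 10.4 and 4.10 CPM in PS19_HA. The choroid plexus sum was 100, 178 and 2020 CPM in PS19_rescue, against 3090, 3430 and 369 CPM in PS19_HA, with 0 of 6 markers above 0 (median -1.34). In PS19_rescue, PS19_HA and WT_HA alike, Perp and Ephx1 were highest in the library with the highest choroid plexus sum, and the part of these markers was not tested. Gtse1 had the highest difference, 0.54 (SE 0.36). Cdkn1a was at 9.80, 6.99 and 6.08 CPM in PS19_rescue, inside the range of PS19_HA, with a log2 difference of -0.54 (SE 0.45) that was 0.18 without PS19_HA replicate 3. Eda2r was at 1.18, 1.08 and 1.33 CPM in PS19_rescue, also inside the range of PS19_HA, with a log2 difference of -0.61 (SE 0.43) that was -0.15 without PS19_HA replicate 3. Fas was at 2.54, 2 and 2.93 CPM in PS19_rescue, inside the range of PS19_HA (log2 -0.22). The activated-microglia sum was 145, 107 and 98.5 CPM in PS19_rescue, against 108, 152 and 245 CPM in PS19_HA.

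Trp53 was at 18.6, 17.0 and 17.0 CPM in PS19_rescue and Mdm2 at 59.1, 60.4 and 51.9 CPM. Their log2 differences from PS19_HA were -0.09 (SE 0.12) and -0.09 (SE 0.13), with 95% intervals of -0.36 to 0.17 and of -0.38 to 0.19. Kdm1a differed widely among the 3 PS19_rescue libraries, whereas Trp53 and Mdm2 were nearly even across them. Ccng1 was at 114, 109 and 113 CPM, Bax at 16.3, 16.9 and 16.9 CPM, Bbc3 at 4.02, 4.78 and 3.72 CPM, Pmaip1 at 4.67, 2.75 and 3.00 CPM, Phlda3 at 9.04, 9.32 and 16.1 CPM and Plk2 at 213, 188 and 125 CPM in PS19_rescue.

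Against WT_HA, PS19_rescue had 22 of 31 members above 0 (50.3% of all genes), with a median of 0.10, against 0 over all genes. edgeR called 0 members (0.0207% of all genes) and DESeq2 0 (0.0933%), and 2 members, Dcxr and Trp53inp1, had an unadjusted p under 0.05 by edgeR, both higher (2.33%). Dcxr, Eda2r, Fas and Trp53inp1 were higher in PS19_rescue without overlap (6.86% of all genes), and the highest difference was that of Eda2r, 0.87 (SE 0.46), while Xpc had the lowest, -0.23 (SE 0.13). Dcxr was 0.60 (SE 0.20) and Trp53inp1 0.28 (SE 0.11). The 3 comparisons at 11 months share PS19_HA, WT_HA or PS19_rescue libraries with each other, so their values are not independent.

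**Figure D5:**
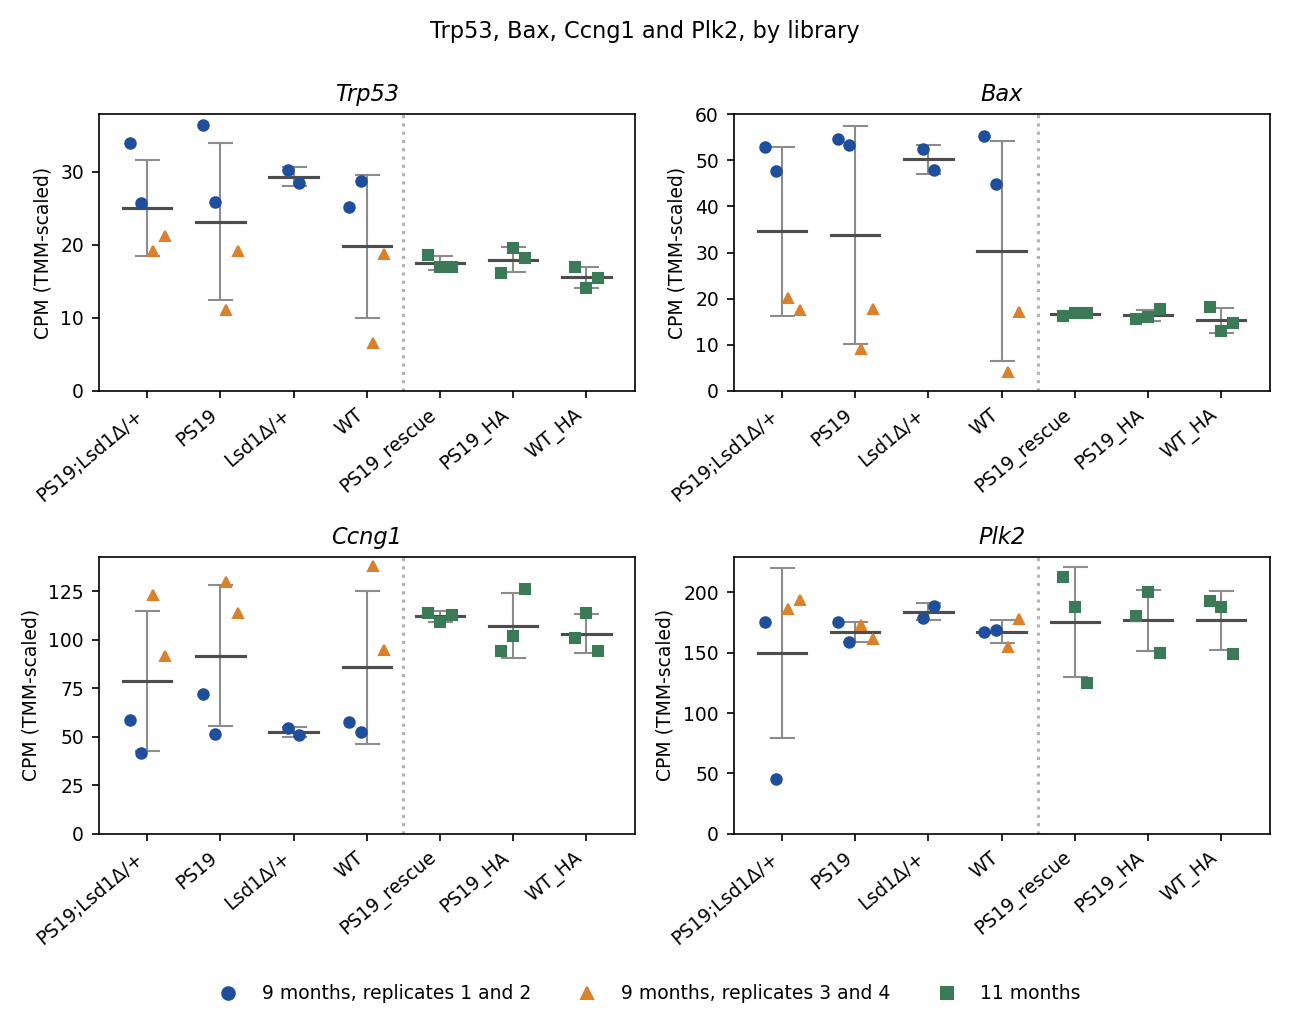
CPM (y axis, linear) of Trp53, Bax, Ccng1 and Plk2 in each library, by group (x axis), with the group mean as a bar and the SD as whiskers, and replicates 1 and 2 of the 9-month cohort drawn apart from replicates 3 and 4. The replicate sets separate Bax (a mean of 14.3 CPM in replicates 3 and 4, against 51.5 CPM in replicates 1 and 2) and Ccng1, and Plk2 is low in replicate 2 of the PS19 Lsd1 heterozygotes, at 45.0 CPM.

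The tau differences of both cohorts were compared in a fit of all 23 libraries. For the difference between cohorts, edgeR called 0 members (0% of all genes), DESeq2 called 0 (0%), and 0 had an unadjusted p under 0.05 by edgeR (0.569%). The difference for Eda2r was -0.01 (SE 0.97), for Cdkn1a 0.82 (SE 0.81), for Ephx1 -0.22 (SE 0.35) and the extremes were 1.30 (SE 0.71) for Gtse1 and -1.44 (SE 1.58) for Gdf15. Cohort, age and injection cannot be told apart in this comparison. Sex type differed as well: every library of the younger cohort was of the male type, while the older cohort held male-type and female-type libraries. The part of sex type in the difference between cohorts was not tested.

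Other genes of the pathway were read from 3 further lists. Of 27 tested regulators of p53, such as the damage kinases Atm and Atr, 12 were above 0 in PS19 against WT (median -0.02), 17 in PS19 Lsd1 heterozygotes against Lsd1Δ/+ (median 0.13) and 8 in PS19_HA against WT_HA (median -0.08). Of 23 further p53 targets, 16 were above 0 in PS19 against WT (median 0.16), 9 in PS19 Lsd1 heterozygotes against Lsd1Δ/+ (median -0.03) and 19 in PS19_HA against WT_HA (median 0.22). Of 9 tested cell-cycle genes, 7 were above 0 in PS19 against WT (median 0.28), 6 in PS19 Lsd1 heterozygotes against Lsd1Δ/+ (median 0.11) and 6 in PS19_HA against WT_HA (median 0.06). edgeR called none of these genes in the 3 tau comparisons. For the dose of Lsd1, the further targets had 15 of 23 above 0 in PS19 Lsd1 heterozygotes against PS19 (median 0.09) and 19 of 23 in Lsd1Δ/+ against WT (median 0.38), the second of which lacks Lsd1Δ/+ libraries of replicates 3 and 4. The regulators had 8 of 27 above 0 in both of these comparisons (medians -0.10 and -0.18), and the cell-cycle genes had 2 of 9 and 6 of 9 (medians -0.03 and 0.08). Neither tool called a gene of these lists in these comparisons, Kdm1a included. Among the 3 lists, Kdm1a was the gene called with the LSD1 virus, by DESeq2 against PS19_HA and by both tools against WT_HA, and reads of the virus and of the mouse gene cannot be told apart in these counts.

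The genes whose log2 CPM was most like that of Cdkn1a over all 23 libraries were Cyba (Pearson r 0.914), Maff (0.907), Spsb1 (0.903), Arpc1b (0.903) and Stat3 (0.898). Among the members, Gtse1 (0.824) and Gdf15 (0.816) were closest to Cdkn1a. These libraries share genotype groups and the replicate sets, and the values are descriptions.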

How the data were processed

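Poly(A) RNA of mouse hippocampus was measured by RNA-seq in 23 libraries. Their 7 groups and replicate numbers were read from the sample titles. The authors deposited unnormalized read counts per gene as whole numbers. The submitters' processing notes list FastQC (0.11.7), Trimmomatic (0.36.5), HISAT2 (2.1.0), featureCounts (1.6.0.6) and DESeq2 (2.11.40.2), with genome build GRCm38. How multiply aligned reads and strand were counted, and with which annotation release, is not given in the sources used here, so genes with overlapping exons are uncertain. A GENCODE annotation of GRCm38 gave symbols for 54165 of 54232 identifiers, all 32 members included.

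From the deposited counts, edgeR 4.0.16 in R 4.3.3 gave the main test: quasi-likelihood, robust, TMM, filterByExpr by group (minimum count 10, total 15), Benjamini-Hochberg over all genes, threshold 0.05. The 14 libraries at 9 months shared 1 fit (20122 genes), the 9 at 11 months another (19290), and the difference between cohorts used all 23 (20931). DESeq2 1.42.0 was the second tool. CPM were TMM-scaled over all 23 libraries, and errors of means are SDs. Intervals are 95%. Both tools were run on simulated data with large known changes, no replicate sets and less spread than the 9-month libraries had. That run checked the code and cannot show which changes would be detected here. Totals of 15451494 to 24644977 counted reads set the precision of low genes. Replicates of a group always differed by more than counting noise (smallest chi-square per gene 11.6).

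The members, lists and tests were chosen with earlier results of these data known. All members are accounted for. Values by library are given for Trp53, Cdkn1a, Mdm2, Ccng1, Bax, Bbc3, Pmaip1, Eda2r, Phlda3, Plk2 and any member called by either tool (Ephx1, and Fas, whose call came from an alternative), the extremes of each comparison are named, and other members are given by means or ranges. Up to 4 called genes of each further list are named, except 1 result that is not reported here.

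Same-numbered libraries were taken as paired where the deviations from group means of every pair correlated above 0.1 over 3 or more pairs: 0.499 to 0.821 for PS19 and WT (4 of 4 closest to their own number), 0.298 to 0.478 for PS19 Lsd1 heterozygotes and PS19 (0 of 4), 0.114 to 0.300 for PS19_HA and WT_HA (3 of 3), and 0.121 to 0.470 for PS19_rescue and WT_HA. The pairing comes from the data and not from a label. The rule was not met for PS19_rescue and PS19_HA (0.0737 to 0.242) or with Lsd1Δ/+, which gives 2 pairs. Alternatives covered normalization, filtering, robust estimation, DESeq2, the replicate block, each library left out, the replicate sets, high mitochondrial shares and sex type.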

Additional observations from a re-analysis of the deposited data

Results flagged for a closer look

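Within groups of 4 libraries, 96 sets of a member and a group were examined for a library whose gap to its nearest neighbour, divided by the range, passed Dixon's 95% critical value, and 4 did. Chance gives about 1 in 20 such sets. Plk2 was lowest in replicate 2 of the PS19 Lsd1 heterozygotes, at 45.0 CPM, with the other 3 libraries at 175 to 194 CPM. Sesn1 was highest in the same library, at 73.6 CPM, with the others at 50.8 to 53.7 CPM. Ephx1 was highest in PS19 replicate 1, at 60.1 CPM, with the others at 29.2 to 31.9 CPM. Tigar was lowest in WT replicate 3, the library with the highest mitochondrial share, at 23.7 CPM, with the others at 33 to 34.2 CPM.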

How the results depend on the processing

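Over 154 values of the number of called members under an alternative, edgeR gave 0 throughout, and 4 values by DESeq2 were above 0. DESeq2 called 1 member, Ephx1, in PS19_HA against WT_HA, and 1 with the replicate block. In PS19 against WT, DESeq2 called 2 members, Cdkn1a and Fas, with the replicate block, and 2 with the 2-level covariate for the replicate sets (adjusted p 0.0208 for Cdkn1a and 0.0344 for Fas by DESeq2). These DESeq2 fits with a block or covariate were chosen after seeing the data. With the replicate block edgeR called 0 members in the 8 comparisons within a cohort, so the block changed no edgeR call of a member there. It was not run for the difference between cohorts. The median difference of the members in PS19_HA against WT_HA ranged from 0.07 to 0.29 with 1 library left out, against 0.14 with all, with the highest values without WT_HA replicate 1 (0.29) and without PS19_HA replicate 1 (0.26). No sign reversed among members with an unadjusted p under 0.05 by edgeR, or a DESeq2 call, in the comparison at hand. Other members did change sign, such as Cdkn1a in PS19 Lsd1 heterozygotes against PS19, from -0.45 to 0.44 without PS19 replicate 1. The number of all genes that edgeR called in PS19 against WT was 1, 5 with the replicate block and 146 without PS19 replicate 2. Members under about 1 CPM rest on few reads.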
